A study of Homo sapiens with 2 samples.

Results

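The mitochondrially encoded complex I mRNAs are the transcripts of MT-ND1, MT-ND2, MT-ND3, MT-ND4, MT-ND4L, MT-ND5 and MT-ND6. Their sites were taken from a list of 2054 binding sites of YBX1 in HEK293, a cell line derived from human embryonic kidney. A site belonged to a gene if its midpoint lay inside the gene on the strand of that gene (hg38, chromosome M). By this rule 31 of the 2054 sites (1.51%) lay in the 7 ND genes, out of 55 sites on the whole mitochondrial chromosome. At least 1 site was found in 6 of the 7 genes, against 6.34% of all protein-coding genes. The sites were mapped by PAR-CLIP, in which cells take up 4-thiouridine, a uridine analog that crosslinks to bound protein under ultraviolet light, and the bound RNA is trimmed with RNase T1, an enzyme that cleaves after G. There was 1 group of 2 replicates, with no control library among the samples used here. According to the methods YBX1 carried a FLAG/HA tag, was stably overexpressed in T-REx HEK293 Flp-In cells and was precipitated through FLAG. The sample labels instead name an antibody against YBX1 itself (D2A11). Both replicates were pooled by the authors into 1 list without read counts or scores, and this leaves both the read depth of the sites and the spread between replicates unknown. Every interval covers counting error only. The levels of these RNAs in HEK293 cells were not used here, so that densities are sites per length and not per molecule.

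Complex I is the entry enzyme of the respiratory chain. It takes electrons from NADH, passes them to ubiquinone and pumps protons across the inner mitochondrial membrane. Its ND subunits build the core of the arm in the membrane and are translated inside mitochondria, whereas the remaining subunits come from nuclear genes and are imported. The ND mRNAs are cut out of long transcripts of both strands of the mitochondrial DNA, largely by removal of the tRNAs between them. MT-ND6 is the only one of the mitochondrial mRNAs read from the opposite strand, and MT-ND4L and MT-ND4 overlap and share 1 mRNA. YBX1 is a cold-shock domain protein that binds many mRNAs of the cytoplasm. Copies of mitochondrial DNA are also found scattered in the nuclear chromosomes, so that a short read from an ND gene can match more than 1 place in the genome.

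MT-ND4 and MT-ND5, which encode antiporter-like subunits of the proton-pumping arm, held 9 sites each, the most of the 7 genes. Their sequences are shown in full because these 18 sites make up most of the set and differ in spacing between the genes. They were read from hg38 on the RNA strand, 5′ to 3′, with T standing for U, and capitals mark each CATC, a tetramer that was already known from earlier results of these data.
MT-ND4 chrM:11197-11222: cacatacttcctattctacaccctag
MT-ND4 chrM:11247-11273: cactaatttacactcacaacaccctag
MT-ND4 chrM:11275-11306: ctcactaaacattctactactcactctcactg
MT-ND4 chrM:11519-11546: acaaaacacatagcctaccccttccttg
MT-ND4 chrM:11658-11679: ccattctCATCcaaaccccctg
MT-ND4 chrM:11719-11742: gcttaCATCctcattactattctg
MT-ND4 chrM:11779-11798: CATCataatcctctctcaag
MT-ND4 chrM:11800-11825: acttcaaactctactcccactaatag
MT-ND4 chrM:11853-11887: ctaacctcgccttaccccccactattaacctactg
MT-ND5 chrM:12458-12476: CATCcacctttattatcag
MT-ND5 chrM:12584-12610: actacttctccataatattCATCcctg
MT-ND5 chrM:12731-12756: ttaccgctaacaacctattccaactg
MT-ND5 chrM:12900-12923: atttatcctacactccaactcatg
MT-ND5 chrM:13145-13172: gcccactaatccaaactctaacactatg
MT-ND5 chrM:13369-13389: tcCATCATCcacaaccttaac
MT-ND5 chrM:13644-13669: cttccccacccttactaacattaacg
MT-ND5 chrM:13731-13758: atttctcattactaacaacatttccccc
MT-ND5 chrM:14017-14040: ctattacctaaaacaatttcacag

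Most of these sequences were short runs of C, A and U that stopped at the first G, as in chrM:11197-11222 of MT-ND4 and chrM:14017-14040 of MT-ND5. CATC was present in 3 sites of MT-ND4 and in 3 sites of MT-ND5. The site of MT-ND5 at chrM:13369-13389 held it in overlapping copies.

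Of the other ND genes, the widest site of each is shown to give the range of widths and G content, and MT-ND4L is given with both of its widest sites. MT-ND6 had no site.
MT-ND1 chrM:3644-3697: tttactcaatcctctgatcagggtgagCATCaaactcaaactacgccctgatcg
MT-ND2 chrM:5141-5164: caccacgaccctactactatctcg
MT-ND3 chrM:10069-10098: ccttaattttaataatcaacaccctcctag
MT-ND4L chrM:10473-10499: cccctcatttacataaatattatacta
MT-ND4L chrM:10538-10564: ctcacacctcatatcctccctactatg

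The site of MT-ND1 shown here was the widest of the ND sites with 54 nt, and held 8 G before its last base. The site of MT-ND2 held 1 such G, and those of MT-ND3 and MT-ND4L none.

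Relative to length, the short genes MT-ND4L and MT-ND3 carried the most sites and MT-ND2 and MT-ND6 the fewest. Densities are per gene. MT-ND4L and MT-ND4 share an mRNA that is longer than either gene, and its density as a whole was not computed. MT-ND4L, which encodes a small membrane subunit (chrM:10470-10766, plus strand, 297 nt), held 4 sites, or 13.5 per kb (exact Poisson 95% interval 3.67 to 34.5). MT-ND3, which encodes a subunit next to the ubiquinone-binding region (chrM:10059-10404, 346 nt), held 4 sites and 11.6 per kb (3.15 to 29.6). MT-ND4 (chrM:10760-12137, 1378 nt) had 6.53 sites per kb (2.99 to 12.4). In the list as deposited these were the 3 densest ND genes, and each covered at least 17.4% of its bases with sites, reaching 30.6% in MT-ND3 and 32.3% in MT-ND4L.

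MT-ND5 (chrM:12337-14148, 1812 nt), the longest of the ND genes, had 4.97 sites per kb (2.27 to 9.43). MT-ND1, which encodes a subunit at the ubiquinone-binding site (chrM:3307-4262, 956 nt), had 4 sites and 4.18 per kb (1.14 to 10.7). MT-ND2, a further antiporter-like subunit (chrM:4470-5511, 1042 nt), had a single site, or 0.960 per kb (0.0243 to 5.35), which covered 2.30% of its bases. MT-ND1, of like length, had 15.2% of its bases covered, but its density of 4.36 times that of MT-ND2 had an interval of 0.431 to 215, which includes 1.

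MT-ND6 (chrM:14149-14673, minus strand, 525 nt) had 0 sites, with an exact Poisson interval of 0 to 7.03 per kb. A limit of 3 counts, which is narrower, allows up to 5.71 per kb. A site on the plus strand at chrM:14365-14384 lay opposite this gene and was not counted as a member. MT-ND6 is also the ND gene with a different base content, with 35.6% G in its RNA, against 9.50% to 12.1% in the other 6 ND genes.

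Neighbours in the order MT-ND4L, MT-ND3, MT-ND4, MT-ND5, MT-ND1, MT-ND2 and MT-ND6 did not differ beyond their intervals. Of the 15 pairs among the 6 genes with a site, 2 had a ratio of densities whose exact conditional 95% interval lay above 1, not adjusted for the number of pairs. The density of MT-ND4L was 14 times that of MT-ND2 (1.39 to 691), and that of MT-ND3 12 times that of MT-ND2 (1.19 to 593). All other ratios included 1, for example 1.31 for MT-ND4 over MT-ND5 (0.462 to 3.74) and 6.81 for MT-ND4 over MT-ND2 (0.943 to 298). The order depended on how close sites were counted. With sites within 50 nt merged, MT-ND4L had 6.73 sites per kb, MT-ND3 5.78, MT-ND5 4.97, MT-ND4 2.18 and MT-ND1 2.09. The 2 ratios with intervals above 1 count close sites as separate events. Merging left 2 groups each in MT-ND4L and MT-ND3 and 1 in MT-ND2. The ratios were not computed again for these groups, so that a difference from MT-ND2 is not established. Among sites wider than the median of the list, MT-ND3 had 8.67 per kb and MT-ND4L 6.73.

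**Figure D1:**
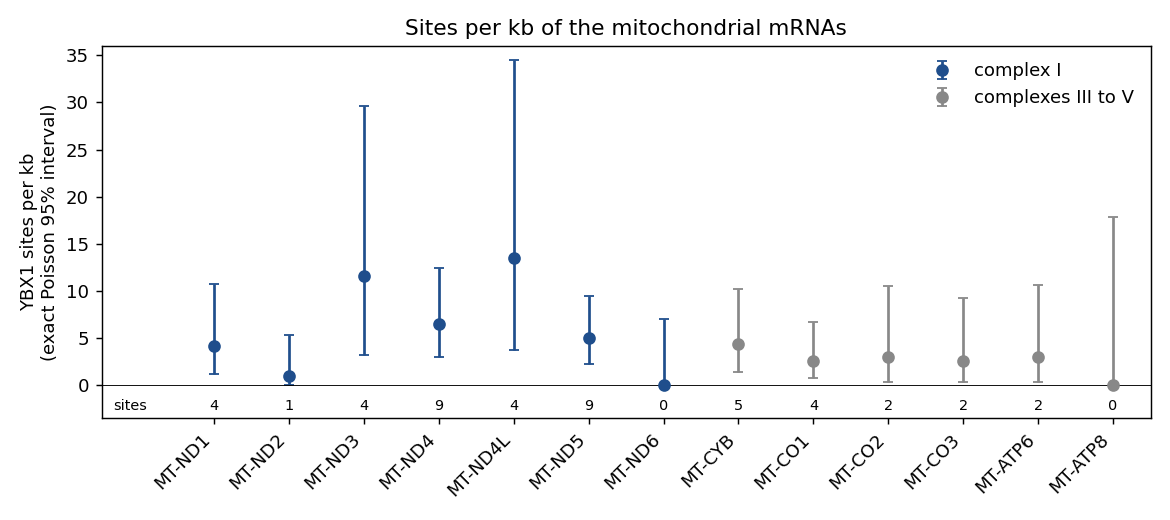
YBX1 sites per kb of each mitochondrial protein-coding gene (y axis), with the ND genes in blue and the genes of complexes III to V in grey. Bars are exact Poisson 95% intervals and the numbers under the points are the sites. MT-ND4L (13.5) and MT-ND3 (11.6) lie highest with wide intervals from 4 sites each, while MT-ND2 (0.960) and MT-ND6 (0) lie lowest of the ND genes.

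The ND genes together had 4.88 sites per kb (3.32 to 6.93, 31 sites in 6349 nt), against 3.0 per kb (1.68 to 4.96, 15 sites in 4992 nt) in the other 6 mitochondrial mRNAs. These 15 comprised 5 sites in MT-CYB, 4 in MT-CO1, 2 each in MT-CO2, MT-CO3 and MT-ATP6, and 0 in MT-ATP8. The ratio of 1.62 had an interval of 0.851 to 3.24, so that a difference between the ND mRNAs and the other mitochondrial mRNAs was not detectable with these numbers. It was 1.77 (0.928 to 3.53) without MT-ND6. The 2 ribosomal RNAs held 3 sites, or 1.19 per kb (0.246 to 3.49).

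Compared with nuclear genes with several sites, 5 of the 7 ND genes were dense in sites, and so were other mitochondrial genes. Over the exons of 1 transcript per gene, 94 genes had at least 3 sites, 87 of them nuclear. MT-ND4L, MT-ND3, MT-ND4 and MT-ND5 took ranks 1 to 4 in sites per kb, and MT-ND1 rank 7, while MT-CYB took rank 5 and MT-CO1 rank 8. Here MT-ND4L and MT-ND4 were ranked as separate genes, although they share 1 mRNA. MT-ND2, with 1 site, and MT-ND6, with 0, had too few sites to be ranked. The nuclear genes had a median of 0.702 sites per kb and at most 4.24, in B2M, which encodes a subunit of MHC class I and was chosen after its value was seen. MT-ND4 and MT-ND5 shared rank 2 by number of sites. Short transcripts need fewer sites to reach a high density. With only the minimum of 3 sites, MT-ND4L and MT-ND3 would already lie above every other ranked gene. That they took ranks 1 and 2 thus followed from their length once they were ranked. The list gives no RNA level by which these values could be scaled.

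Along the mRNAs, the sites lay in all parts of the coding sequences. Of the 31 sites, 10 lay in the 5′, 10 in the middle and 11 in the 3′ section when each gene was divided into 3 sections of equal length. The genes differed in how close their sites lay to each other. In MT-ND4, 6 of the 8 gaps between neighbouring sites were within 50 nt, with a median of 31.5 nt (1 to 212). In MT-ND5, 0 of 8 gaps were within 50 nt, with a median of 169.5 nt (61 to 258). The same number of sites thus formed 3 groups in MT-ND4 once sites within 50 nt were merged, while those of MT-ND5 stayed 9 separate sites.

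In MT-ND4, the first 437 nt held no site and the 9 sites lay from nt 438 to nt 1128. In MT-ND5, the first site began at nt 122 and the last ended at nt 1704, close to the 3′ end. MT-ND1 had its 4 sites from nt 149 to nt 506 and none in the 450 nt after that. In MT-ND3 and MT-ND4L, the sites lay in both outer sections, 2 at each end, and 0 in the middle section. Of the 31 sites, that of MT-ND4L at nt 4 to 30 lay nearest to a start codon. A site at chrM:3285-3315, which has its midpoint in the tRNA gene MT-TL1 and was not counted as a member, reached over the first bases of MT-ND1. Counted by any overlap, it brought the ND sites to 32 and MT-ND1 to 5.23 per kb.

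Across all ND genes, 12 of 25 gaps between neighbouring sites were within 50 nt and 4 were of at most 5 nt. In MT-ND3, the sites chrM:10069-10098 and chrM:10099-10126 abutted without a gap, split at a G. In MT-ND4, chrM:11247-11273 and chrM:11275-11306 were 1 nt apart, as were chrM:11779-11798 and chrM:11800-11825. In MT-ND1, chrM:3746-3776 and chrM:3780-3812 were 3 nt apart.

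**Figure D2:**
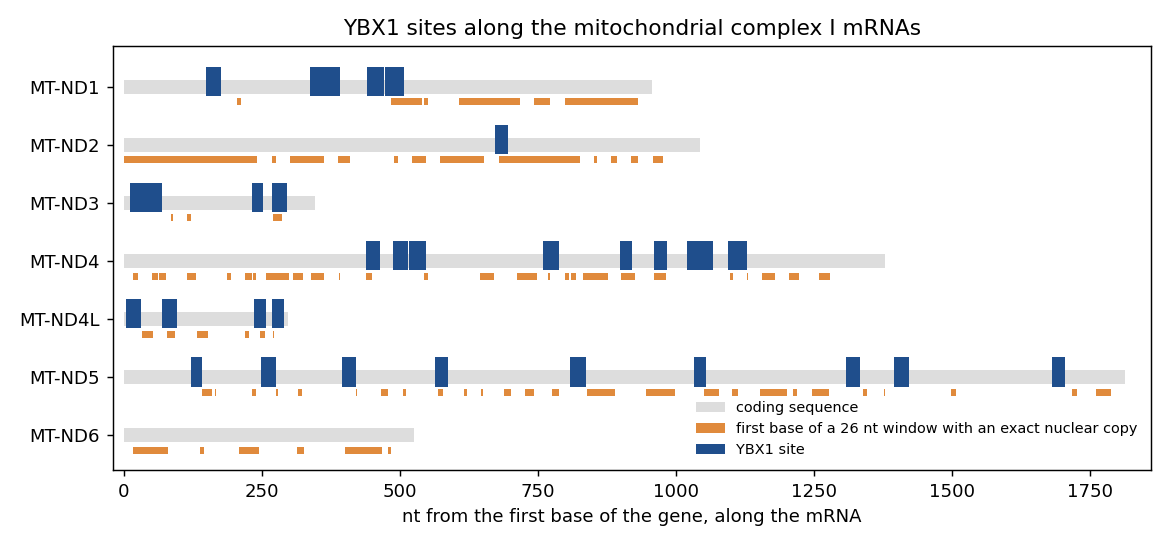
Sites (blue) along the coding sequence of each ND gene (grey), in nt from its first base; orange bars mark the first base of each 26 nt window that has an exact copy on a nuclear chromosome. The sites of MT-ND4 lie in groups and those of MT-ND5 singly, and the stretches after nt 506 of MT-ND1 and over most of MT-ND2 combine few or no sites with long orange bars.

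No ND site as a whole occurred again in the nuclear chromosomes. Of the 31 sites, 0 had an exact copy outside the mitochondrial chromosome, which allows a share of up to 9.68%. In the ND genes as a whole, 33.8% of all windows of 26 nt, the median width of the mitochondrial sites, had such a copy. This was not particular to the ND sites. All other sites on the mitochondrial chromosome also lacked an exact nuclear copy, with copies for 53.5% of windows in the other mitochondrial mRNAs. With mismatches allowed, the sites were less distinct, since 15 of 31 had a nuclear sequence at 1 mismatch, 23 had one within 2 mismatches, and 8 had none.

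Among the ND genes, MT-ND2 and MT-ND6, which had the fewest sites, had the largest shares of sequence with nuclear copies. In MT-ND2, 62.5% of windows had an exact nuclear copy, against 8.41% in MT-ND3, 22.6% in MT-ND5, 25.7% in MT-ND4L, 30.7% in MT-ND4, 36.7% in MT-ND1 and 39.4% in MT-ND6. In the other mitochondrial mRNAs, the share ran from 12.5% in MT-CYB, with 5 sites, to 76.9% in MT-CO1, with 4. Within MT-ND1, the 450 nt without a site after nt 506 had copies for 73.6% of windows, and the 148 nt before the first site for 0%. The stretches without a site differed in this share. In MT-ND2, it was 67.5% in the 671 nt before the site and 55.0% in the 347 nt after it. There were 27 stretches of at least 26 nt before, between or after sites, counted whatever their length. Of these, 10 had a share of copied windows at or above the 33.8% of all ND genes, and 17 a lower one. Among the 20 stretches of at least 100 nt, 8 were at or above it and 12 below. These counts give short and long stretches the same weight. The longest stretches, of 671, 450, 437 and 347 nt, were all above it, with 67.5%, 73.6%, 38.8% and 55.0%. A share over all stretches together was not computed, so the counts do not tell whether sequence without sites was richer in copies. In MT-ND5, the 258 nt from nt 1423 to 1680 had copies for 4.29% of windows, and in MT-ND3, the 164 nt from nt 69 to 232 for 7.91%.

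Per 1000 windows without a nuclear copy, a measure added after the data were seen, MT-ND4L had 19.8 sites (5.40 to 50.7), MT-ND3 13.6 (3.71 to 34.8), MT-ND4 9.61 (4.39 to 18.2), MT-ND1 6.79 (1.85 to 17.4), MT-ND5 6.50 (2.97 to 12.3), MT-ND2 2.62 (0.0665 to 14.6) and MT-ND6 0. MT-ND4L then had 7.54 times the density of MT-ND2 (0.747 to 372), and none of the 15 pairs had an interval above 1. The ratio of the ND genes to the other mitochondrial mRNAs was 1.15 (0.602 to 2.29) on this scale, with nuclear copies for 33.8% of the windows in the ND genes and 53.5% in the other mRNAs. How reads that match several places were treated is not given in the sources used here, and the part of nuclear copies in these densities was not tested.

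The ND sites lay between G, where RNase T1 cuts. Of the 31 sites, 30 began directly after a G and 26 ended in a G, while 25 did both. The count of sites ending in G follows in part from how the listed end was read, since the last base was taken where this G lies. Read to the listed end itself, it was 7 of 31. The count of 25 rests on the same reading. The count of 30 rests on reading the start as base 1 of the chromosome, for which no alternative was run. In 23 sites, no further G was present, and 18 sites were exactly 1 whole stretch from one G to the next. Both counts likewise rest on these readings of start and end. Sites in the ND genes ended in TG 13 times, in AG 10 times and in CG 3 times. The site that did not follow a G, chrM:13145-13172 of MT-ND5, followed an A and began with a G. The 5 sites that ended in another base lay in MT-ND4L (chrM:10473-10499 and chrM:10738-10758), MT-ND5 (chrM:13369-13389 and chrM:13731-13758) and MT-ND1 (chrM:3780-3812).

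The number of stretches between G differed between the ND genes. Cut after every G, the 7 genes give 806 fragments, of which 106 are longer than 16 nt, the length above which the authors kept reads. MT-ND5 has 31 such fragments, MT-ND4 24, MT-ND2 18, MT-ND1 17, MT-ND3 9 and MT-ND4L 6. MT-ND6, rich in G, has 1 among 187, of 18 nt and with an exact nuclear copy.

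A site was present on 29 of the 106 fragments (27.4%), against 15 of 81 (18.5%) in the other mitochondrial mRNAs. The share was 66.7% in MT-ND4L (4 of 6), 44.4% in MT-ND3 (4 of 9), 33.3% in MT-ND4 (8 of 24), 29.0% in MT-ND5 (9 of 31), 17.6% in MT-ND1 (3 of 17) and 5.56% in MT-ND2 (1 of 18). The order of the genes was thus that of their densities. One site each of MT-ND1 and MT-ND4 had its midpoint in a shorter fragment.

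Fragments of medium length carried sites most often. Of the ND fragments of 26 to 30 nt, 13 of 24 held a site (54.2%), against 8 of 30 (26.7%) at 21 to 25 nt, 5 of 23 (21.7%) at 17 to 20 nt and 3 of 29 (10.3%) at 31 nt and more. The bound RNA was selected by size in the experiment, and the part of this step was not tested.

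Among ND fragments of 17 to 30 nt, 24 of the 46 without an exact nuclear copy held a site (52.2%, Wilson 95% interval 38.1 to 65.9). Of the 31 with a copy, 2 did (6.45%, 1.79 to 20.7). In the other mitochondrial mRNAs, it was 14 of 25 (56.0%) without a copy and 0 of 40 with one. The 2 sites on ND fragments with a copy were chrM:5141-5164 of MT-ND2 and chrM:11719-11742 of MT-ND4. Both reach past their fragment over a G and, like all ND sites, have no exact copy as a whole. This split was made after the data were seen, and the part of nuclear copies in it was not tested.

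By gene, sites were present on 4 of 5 such fragments without a copy in MT-ND4L, 9 of 15 in MT-ND5, 6 of 11 in MT-ND4, 4 of 8 in MT-ND3 and 1 of 7 in MT-ND1. MT-ND2 had 0 fragments of 17 to 30 nt without a nuclear copy and 9 with one. Its 7 fragments without a copy were all of 31 nt or more, and none of them held a site.

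**Figure D3:**
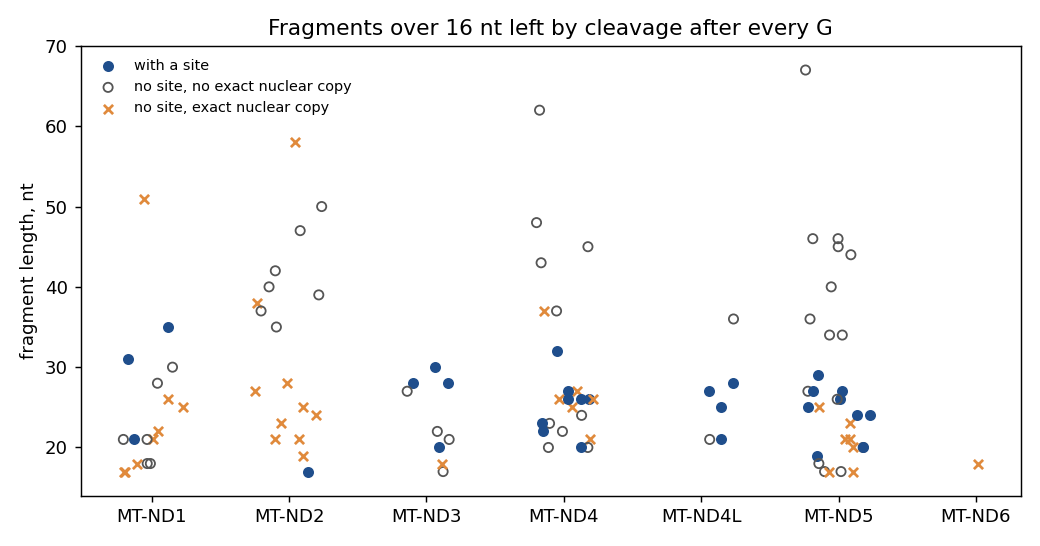
Length in nt of each fragment over 16 nt that cleavage after every G leaves in the ND genes (y axis), by gene, with points spread sideways at random within a gene. Fragments with a site (filled) lie mainly below 31 nt, all fragments of MT-ND2 up to 30 nt have an exact nuclear copy, and MT-ND6 has 1 fragment; the filled points in MT-ND2 (17 nt) and, once, in MT-ND4 (23 nt) are fragments with a copy.

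The ND sites were wider than most sites of the list. Their width was 19 to 54 nt with a median of 27 nt, and 24 of 31 (77.4%) were wider than the median of all sites, 22 nt, as were 928 of 2054 (45.2%) in the whole list. The sites in the other mitochondrial mRNAs had a median of 25 nt (20 to 51). By gene, the median was 32 nt in MT-ND1, 28 nt in MT-ND3, 26 nt in MT-ND4 and MT-ND5 and 24 nt in MT-ND4L and MT-ND2. Each ND site held at least 3 U, at which crosslinking can take place, with a median of 7 and at most 14.

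The ND sites were poor in G, and on average slightly richer in each of the other bases than their genes. G made up 4.66% of the bases of a site on average, against 10.7% in its gene, and was higher in 1 of 31 sites. C was at 35.6% in sites, against 33.5% in their genes, and higher in 21 of 31. U was at 29.1%, against 26.1%, and likewise higher in 21 of 31. A was at 30.7%, against 29.7%, and higher in 15 of 31. Low G was not particular to the ND sites. In the other mitochondrial mRNAs, G was at 4.29% in sites, against 13.7% in their genes. There C was at 37.6%, against 32.3%, U at 32.8%, against 25.8%, and A at 25.2%, against 28.2%.

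C and A together made up 66.2% ± 7.07 (SD over 31 sites) of the ND sites, against 63.2% in the genes that hold them. The difference was 3.07 ± 7.29 percentage points, and 23 of 31 sites lay above their gene. It ran from -14.5 points, in chrM:11719-11742 of MT-ND4, to 21 points, in chrM:10291-10310 of MT-ND3. Among A, C and U alone the direction turned, with -1.25 points and 13 of 31 sites above their gene. Windows with T1 ends, taken from the same gene, follow a G and have a G as their last base. Against all such windows of the same width, the ND sites were higher by 6.99 ± 8.06 points, in 26 of 31 sites. Against such windows with an equal number of internal G, a comparison added after the data were seen, the difference was 2.77 ± 9.90 points over the 22 sites with such windows, and 13 of 22 were higher. With 10 nt added on each side of the sites it was 0.399 points, and for sites wider than the median of the list 1.52 points. In the other mitochondrial mRNAs, sites differed from their genes by 2.34 ± 9.89 points (15 sites). Sites of 1 gene are not replicates, and no test was run over them.

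**Figure D4:**
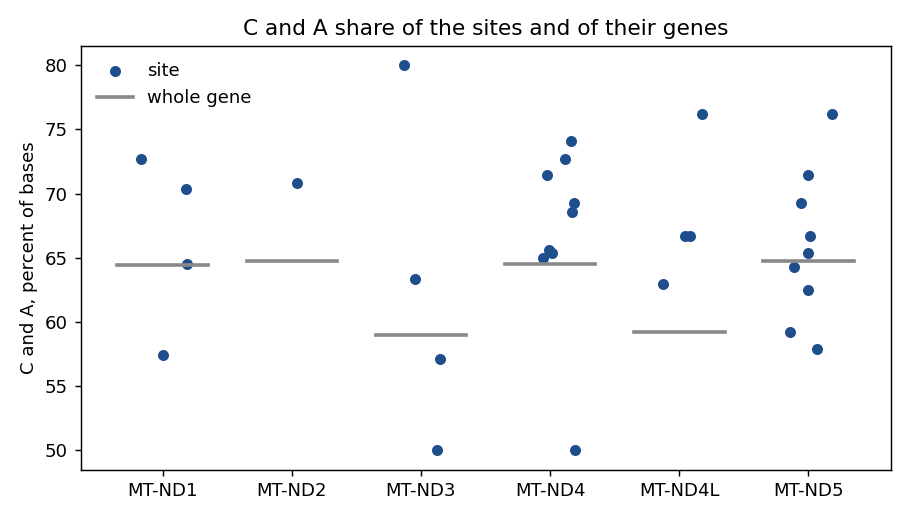
Share of C and A in percent of bases (y axis) in each ND site (points, spread sideways at random) and in the whole gene (grey lines), by gene. Sites lie on both sides of the lines, with 23 of 31 above, and range widely in MT-ND3 and MT-ND4.

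C- and A-rich tetramers known from earlier results of these data were found in part of the ND sites. Their shares here are therefore no independent check of these tetramers. CATC was present in 9 of 31 (29.0%, Wilson 95% interval 16.1 to 46.6), against 17.9% of all windows of the same widths in the same genes. CAAC was present in 10 (32.3%, 18.6 to 49.9), against 24.3% of windows. AACA was present in 13 (41.9%, 26.4 to 59.2), against 23.3%, and CACC in 9 (29.0%), against 19.4%. All were searched on the RNA strand only, and AACA can overlap CAAC.

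The share of windows lay inside the interval of the sites for CATC, CAAC and CACC, and below it for AACA. Against windows with T1 ends and as many G, for 22 sites, CATC was in 31.8% of sites, against 33.3% of windows, and AACA in 31.8%, against 25.8%. CAAC was in 22.7% of sites, against 30.3% of windows, and CACC in 22.7%, against 13.3%. The matched window share lay inside the Wilson interval of the 22 sites for each of these tetramers. This interval was 16.4 to 52.7 for CATC and AACA, and 10.1 to 43.4 for CAAC and CACC. A difference from the matched windows was thus not detectable. The matched comparison covers 22 of the 31 sites, so its shares cannot be set directly beside those for all windows. CATC sites were found in MT-ND4 (3), MT-ND5 (3), MT-ND1 (2) and MT-ND3 (1), and in 0 sites of MT-ND2 and MT-ND4L. The tetramers found in most ND sites were ACTA, in 16 of 31 (51.6%, against 30.3% of windows), and TACT, in 15 (48.4%, against 27.2%), both chosen after their values were seen. In the other mitochondrial mRNAs, CATC was in 7 of 15 sites (46.7%, against 22.2% of windows).

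The nuclear partners of the ND subunits were not among the bound genes. Of 37 nuclear genes for complex I subunits, 0 had a site in an exon or intron on their strand, which allows a share of up to 8.11%. Of all 20046 protein-coding genes, 1271 had a site (6.34%), and this share lies below the limit for the 37 genes. The transcripts of these subunits were short, with a median of 691 nt, against 2885 nt over 20020 protein-coding genes and 4103 nt over those with a site. The authors' gene column names NDUFB7, which encodes an accessory subunit, once. That site (chr19:14564195-14564218, plus strand) lay in TECR on its own strand.

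Of 20 assembly factors, which help to put complex I together but are not part of it, 2 had a site (10%), beside the 6.34% of all protein-coding genes. These were NDUFAF4 (chr6:96890802-96890824, 3′UTR) and TMEM70 (3′UTR), of which NDUFAF4 alone was left with sites wider than the median of the list. Of 32 genes that make, process, translate or stabilise mitochondrial mRNAs, 5 had a site (15.6%, beside the same 6.34%). It was 4 (12.5%) by the authors' gene names, which give the site in C1QBP to RPAIN, and 3 (9.38%) with sites wider than the median of the list. TFAM, which packages mitochondrial DNA, and GRSF1, an RNA-binding protein of mitochondrial RNA granules, had theirs in the 3′UTR, while FASTK, FASTKD5, which acts in the processing of mitochondrial RNA, and C1QBP, a protein of the mitochondrial matrix, had theirs in the coding sequence. Each of these 7 nuclear genes had 1 site. Where transcripts of a gene differed, the 3′UTR was taken first. The authors' list classes the sites of TFAM and TMEM70 as non-coding.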

How the data were processed

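PAR-CLIP of YBX1 was performed in HEK293 cells in 2 replicates. The authors trimmed reads with cutadapt (1.4.1), kept those longer than 16 bases, aligned them to hg38 and a transcriptome with the PARA-suite, called stranded clusters with BMix and annotated them with HOMER. The deposited list gives positions, strand, gene and class of each site for both replicates together. It has no counts or scores, and it names no gene for the 55 mitochondrial sites.

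Starts were read as base 1 of the chromosome, and the last base as 1 before the listed end, where the G left by RNase T1 lies. Genes were those of GENCODE release 44. Copies were searched on both strands of 194 hg38 sequences without alternate contigs. Fragments over 64 nt (2) were searched by their first 64 nt. Site counts have exact Poisson 95% intervals, ratios exact conditional and shares Wilson intervals. No test over samples was possible, and no p-value is given. The search for copies was checked on simulated data. Python 3.11.15, numpy 2.4.6, scipy 1.17.1, numba 0.67.0 and matplotlib 3.10.9 were used.

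All 7 ND genes, the other mitochondrial mRNAs and rRNAs by counts, and each listed nuclear gene with a site are named. Sequences shown are all sites of the 2 ND genes with the most sites and the widest of each other ND gene. Members, gene lists and motifs were chosen with earlier results of these data known. Alternatives were any overlap, no strand, wider sites, merging within 50 nt, sequences that occur once, the listed end, extension by 10 nt, RNase T1 windows, shares among A, C and T, exons only and the authors' gene names. Nuclear copies at up to 2 mismatches, windows without a copy, RNase T1 fragments and windows with as many G were added after seeing the data.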

Additional observations from a re-analysis of the deposited data

How the results depend on the processing

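Of 78 alternative values, 73 kept their direction and stayed within the interval, spread or 1.5-fold range of the main value. This count says little about robustness. Intervals on few sites are wide, so that MT-ND4L at 6.73 per kb in place of 13.5 counted as kept (3.67 to 34.5). The setting of sequences that occur once removed no site and could not move any value. The share of C and A relative to the genes reversed to -1.25 percentage points among A, C and T alone, which leaves G out. Merging sites within 50 nt left 19 ND sites in place of 31, and 2.18 per kb in MT-ND4 in place of 6.53, since its sites lie close together, and it also lowered MT-ND4L to 6.73 per kb in place of 13.5, MT-ND3 to 5.78 in place of 11.6 and MT-ND1 to 2.09 in place of 4.18, which put MT-ND5 (4.97) above MT-ND4. Among sites wider than the median, MT-ND4L (6.73) was below MT-ND3 (8.67). Only 8 ND sites were left when those with a nuclear sequence within 2 mismatches were removed, an alternative chosen after seeing the data. By the authors' gene names, 1 nuclear complex I gene had a site in place of 0. No ND site was lost when a sequence had to be unique in the genome, which left 31. The results could not be repeated without a replicate, and no paired analysis was possible because both replicates are pooled in 1 list. With 0 to 9 sites per gene and no read counts, densities of single ND genes have wide intervals, and the strength of a site is unknown.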
